A study of Mus musculus with 2 samples.

Results

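Fadd, Casp8, Casp9, Bcl2, Bcl2l1, Bcl2l11, Mcl1, Bid and Bak1 encode the adaptor of death receptors, the initiator caspases and the best known BCL2 proteins. They were taken by symbol from a deposited gene table of 14398 genes, and 8 of these 9 genes had a row. Bcl2 had none, so no level can be given for it. The table compared 2 RNA sequencing libraries of 46C mouse embryonic stem cells, a line with a GFP reporter in Sox1. The control library came from cells transfected with an empty vector (labelled PB). The ID2 library came from cells transfected to overexpress ID2 (labelled PB-ID2), a helix-loop-helix protein that binds E proteins and keeps them from DNA. Both cultures were at passages 21 to 24, on gelatin, in serum medium with leukemia inhibitory factor. The promoter that drove ID2, and whether each culture was 1 clone or a pool, are not stated in the labels. Each group had 1 library, so no difference below has an error or a test, and "higher" and "lower" compare the ID2 library with the control library.

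Apoptosis, a form of programmed cell death, can start at the cell surface or at mitochondria. On the surface route, a death receptor binds the adaptor FADD, FADD gathers caspase-8, and caspase-8 cuts the executioner caspases and BID. On the mitochondrial route, BH3-only proteins such as BIM (the product of Bcl2l11) and BID overcome the survival proteins BCL2, BCL-XL (Bcl2l1) and MCL1. BAK (Bak1) and BAX then open the outer mitochondrial membrane, cytochrome c leaves, and APAF1 activates caspase-9. Mouse embryonic stem cells are known for their readiness to die after DNA damage, and early mouse embryos for their need of MCL1.

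The BCL2 members share the BH3 core, a leucine, 3 further residues, a glycine and an aspartate. It lies in a region that takes part in binding between BCL2 proteins. The coding DNA of this core was read from the longest coding transcript of each gene in GENCODE M21, to show what unites the members whose levels are compared. Capitals mark the 6 codons of the core, and 5 codons stand on each side.
Bcl2: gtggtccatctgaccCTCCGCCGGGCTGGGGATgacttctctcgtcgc
Bcl2l1: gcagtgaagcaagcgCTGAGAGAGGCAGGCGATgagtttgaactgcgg
Mcl1: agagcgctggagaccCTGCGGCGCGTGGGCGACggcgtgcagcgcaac
Bcl2l11: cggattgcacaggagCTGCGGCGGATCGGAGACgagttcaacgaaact
Bid: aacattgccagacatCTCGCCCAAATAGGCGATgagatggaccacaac
Bak1: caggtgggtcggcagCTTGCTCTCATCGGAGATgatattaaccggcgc
Each of these 6 coding sequences held the core once. Of its 18 bases, 6 were the same in all 6 genes. The core was found by its leucine, glycine and aspartate. The shared bases all lie in those codons, so the search largely fixed them in advance. Mcl1 and Bcl2l11 had 14 of 18 bases in common, the most of any pair, and Bcl2l1 and Bak1 had 7, the fewest. These counts describe the letters and are not binding data.

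The caspases were marked in the same way by the 5 codons around the catalytic cysteine, again with 5 codons on each side.
Casp8: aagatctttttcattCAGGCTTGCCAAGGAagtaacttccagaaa
Casp9: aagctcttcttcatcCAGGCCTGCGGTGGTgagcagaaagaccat
The capitals agreed at 10 of 15 bases. The site was found by a set pattern of residues. All the shared bases lie in codons of those residues, so the search largely fixed this agreement.

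Values are the authors' normalized values. They come in whole steps, of 0.9952 for the control and 1.0049 for the ID2 library, to within 0.01 of a step. Sorted, the whole numbers of both libraries were the same at every rank, so depth cannot be read from them and no interval for counting error is given. Id2 stood at 324 in the control against 26225 in the ID2 library, in the direction of the labels. All 8 embryonic stem cell markers checked (Pou5f1, Sox2, Nanog and others) were listed, at 7735 or more in both libraries. Of these, 7 were higher and 1 was lower (median log2 ratio 0.30), and Zfp42, a marker of the naive state, was farthest apart at 9009 and 16218 (0.85). Of 9 fibroblast and feeder markers 5 were listed, with a summed value of 2143 in the control against 1350 in the ID2 library, and Col3a1, Dcn, Lum and Postn had no row. The 3 above the floor of 50 on the mean used throughout were all lower, and the collagen gene Col1a1 was past 2-fold, at 339 and 139 (−1.28). Of 4 blood cell markers, Cd3e and Itgam were listed (sum 123 and 96.5) and Ptprc and Hbb-b1 were not. The part of these differences in the results below was not tested.

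Of the listed members, Fadd alone was 2-fold or more apart between the libraries. The other 7 listed members lay within 1.42-fold, and each had a ratio between the 5th and 95th percentile of genes at its level. By the sign of the difference alone, 6 members were higher and 2 were lower in the ID2 library. Ratios are log2 of the ID2 value over the control value after adding 1 to both. The median over the 8 members was 0.20, against −0.0023 over all genes with a mean of at least 50, the floor used here. Of 12679 rows above that floor, 4.39% were at least 2-fold apart in either direction, 2.53% were at least 2-fold higher, and 1.86% were lower by as much. By any amount, 47.2% were higher and 51.5% lower. The single member past 2-fold makes 12.5% of 8. At the level of Fadd 2-fold differences were more common than this, as given below.

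**Figure D1:**
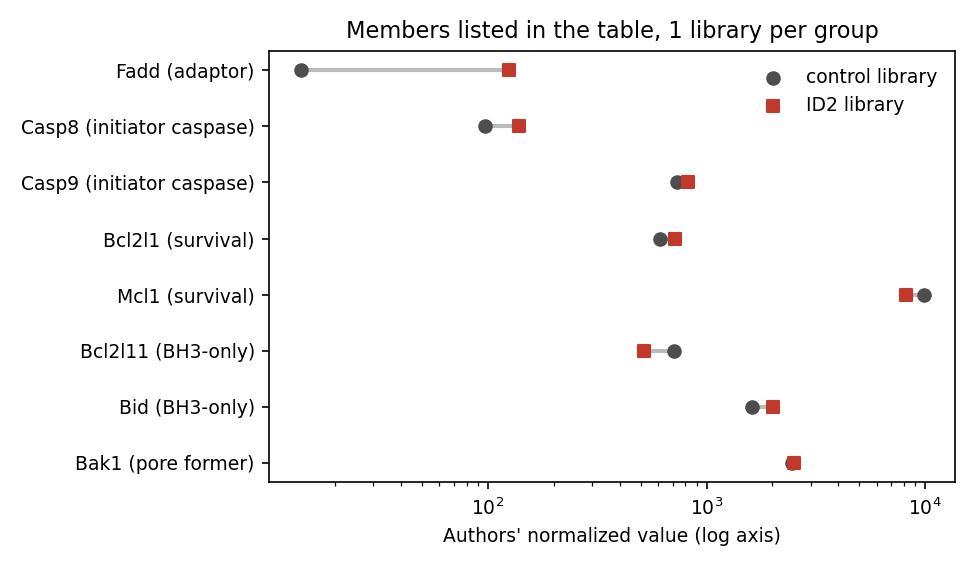
Normalized value of the 8 listed members (log axis) in the control (grey circles) and the ID2 library (red squares), 1 library per group and so no error bars. Fadd is far apart, at 13.9 and 125, while Bak1 nearly coincides, at 2468 and 2520.

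Fadd, the adaptor that links death receptors to caspase-8, stood at 13.9 in the control against 125 in the ID2 library. In whole steps these were 14 and 124. Fewer cells with Fadd RNA and less of it per cell cannot be told apart in the control. The log2 ratio was 3.07, an 8.41-fold difference, which rests on a control value under the floor. Only the ID2 value lifted the mean of Fadd to 69.3, so it passed the floor through the library in which it was high. Among the 634 genes with means from 50 to 72.0, the lowest of 20 level bins, 16.7% were 2-fold or more apart and 8.68% were higher by that much. In that bin 2 genes, Fadd included, had an absolute log2 ratio as large as that of Fadd, and Fadd alone had it in the higher direction. The authors' deposited table lists Fadd at 8.94-fold, with a p of 0.00437 and an adjusted p of 0.510. Those p-values come from 1 library per group, and 3.85% of all genes in the authors' deposited table had an unadjusted p under 0.05.

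**Figure D2:**
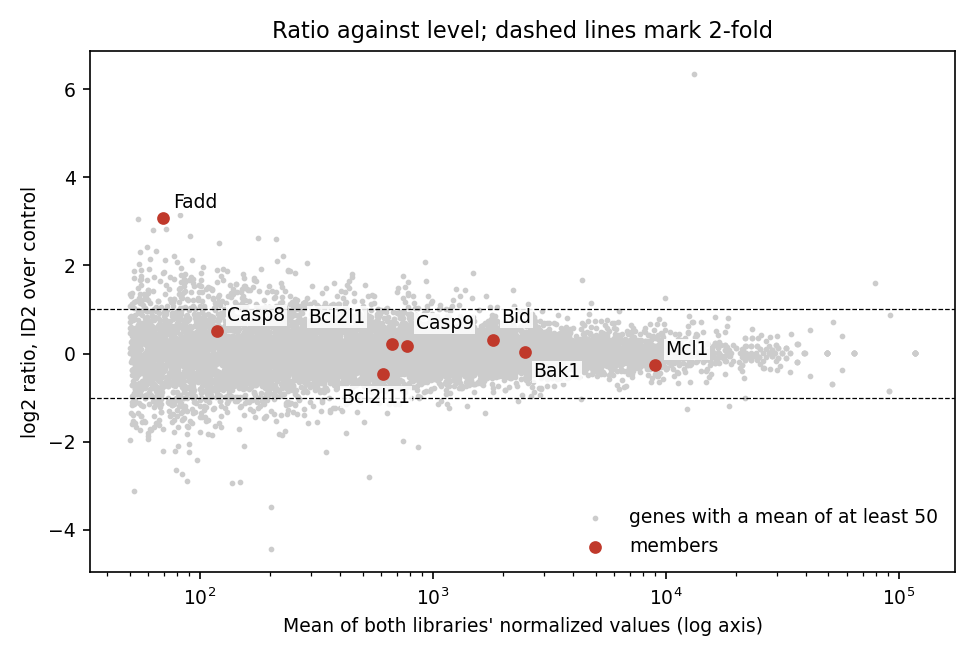
Log2 ratio of ID2 over control against the mean of both values (log axis) for genes above the floor (grey) and the 8 listed members (red), with dashed lines at 2-fold. Ratios spread most at low means, where Fadd (3.07) and Casp8 (0.50) lie.

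The transcript of Fadd has 2 exons, and 90.8% of its 3903 bases lie in the longer exon. Coding genes whose longest exon makes up 80% or more of the transcript, a class that earlier results of these data had pointed to, were higher by 2-fold or more in 6.79% of 1724 cases and lower by as much in 1.39%. For the other 9779 coding genes these shares were 1.54% and 1.44%. Within the level bin of Fadd, 13.3% of 90 genes of this class and 7.2% of 347 other coding genes were at least 2-fold higher. In the same bin 5.56% of the class and 8.93% of the other coding genes were lower by as much. Bcl2l11 was the other member of the class, with 85.7% of its transcript in 1 exon, and it was lower in the ID2 library. The part of exon structure in the Fadd value was not tested.

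**Figure D3:**
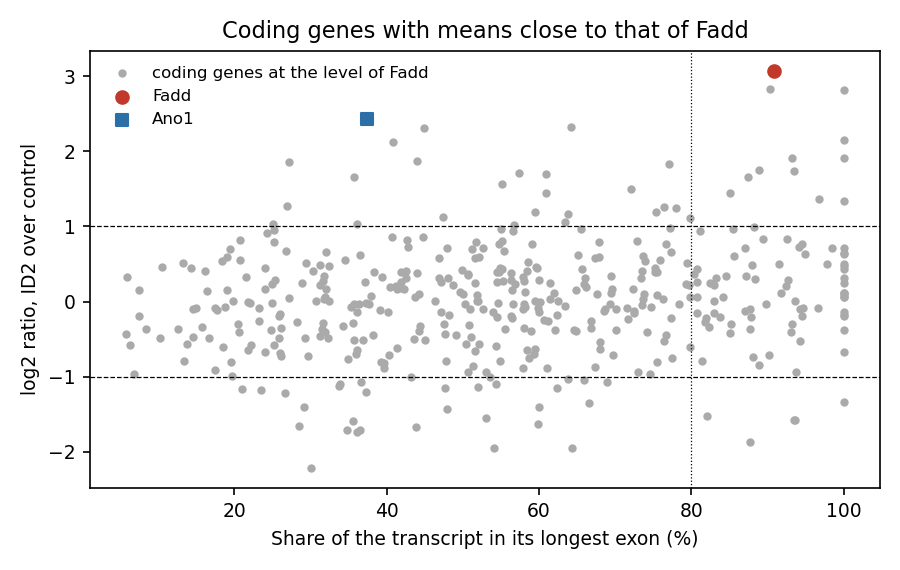
Log2 ratio of ID2 over control against the share of the transcript in its longest exon (percent) for coding genes in the level bin of Fadd, with dashed lines at 2-fold and a dotted line at 80%. Fadd (90.8%, 3.07) is the highest point, and Ano1 (37.4%, 2.42) lies high among genes with many exons.

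Ano1, which encodes a calcium-activated chloride channel, is the next coding gene on chromosome 7 and lies on the same strand. It stood at 17.9 in the control against 100 in the ID2 library, a log2 ratio of 2.42. Like Fadd, Ano1 passed the floor through the ID2 library alone (mean 59.2), and it lies in the same level bin, where 16.7% of genes were 2-fold or more apart. The authors' deposited table gives Ano1 a p of 0.0316 and an adjusted p of 1. Its longest transcript has 25 exons, with 37.4% of the bases in the longest. On the other side, Ppfia1 stood at 2163 and 2397 (0.15) and Cttn, an actin-binding protein, at 6043 and 5849 (−0.05). Fgf3, the coding gene beyond Ano1, stood at 122 and 96.5 (−0.34). Ppfia1 and Cttn lie at levels where 0.473% of genes were 2-fold or more apart, and for Fgf3 this share was 11.2%. Of the 36 coding genes that are the nearest 2 on each side of the 9 members, 28 were above the floor. Ano1 alone was higher by 2-fold or more, and Adamtsl4, next to Mcl1, alone was lower by as much (1073 and 535). Each makes 3.57% of the 28, against 2.53% higher and 1.86% lower over all genes above the floor, so these counts are near the background.

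**Figure D4:**
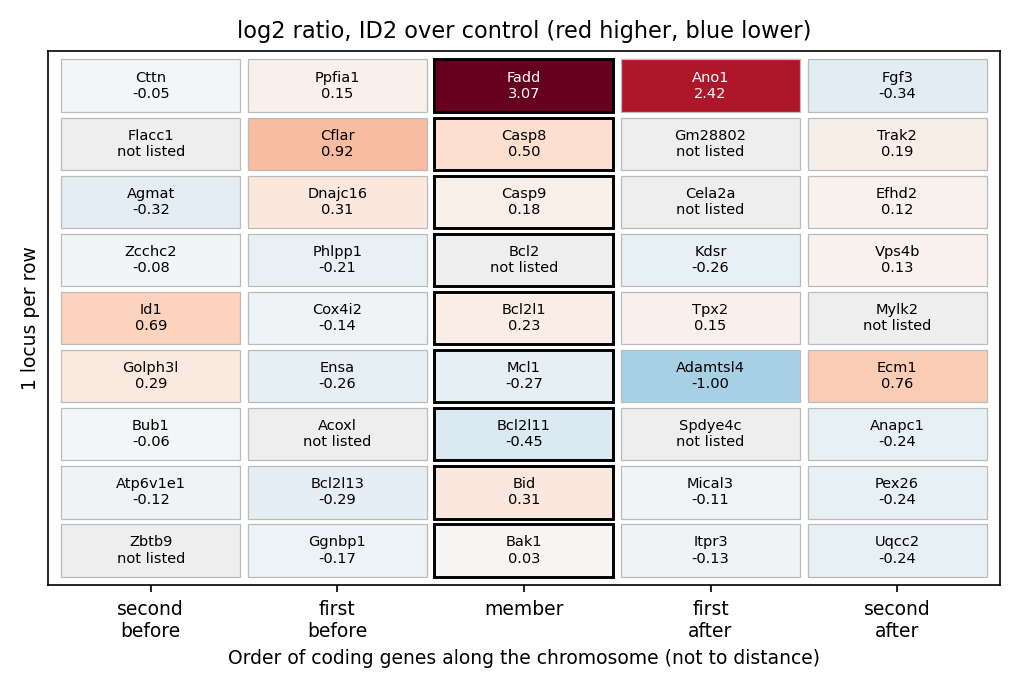
Log2 ratio of ID2 over control for each member (thick frame) and the nearest 2 coding genes on each side, in chromosome order and not to distance; color runs from blue (lower) to red (higher), saturates at 3 and grey means not listed. Fadd (3.07) and Ano1 (2.42) are the strongest red, both at low level, and Cflar (0.92) stands beside Casp8 (0.50).

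The bases before the Fadd start were read because ID2 acts on E proteins, which bind the E-box CANNTG. The 250 bases before the annotated start (RefSeq, GRCm38.p6, chr7:144582442-144582691, minus strand, printed 5′ to 3′ on that strand) are shown with E-boxes and GC boxes (GGGCGG or CCGCCC) in capitals.
Fadd: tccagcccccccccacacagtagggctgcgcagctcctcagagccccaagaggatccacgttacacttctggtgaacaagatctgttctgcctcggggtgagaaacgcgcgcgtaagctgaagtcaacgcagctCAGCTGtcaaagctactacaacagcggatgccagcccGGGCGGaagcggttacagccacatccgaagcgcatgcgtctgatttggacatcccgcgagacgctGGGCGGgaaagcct
This window held 1 E-box, CAGCTG, from 116 to 111 bases before the start, and 2 GC boxes. An E-box of any kind was present in 66.2% of 32851 promoter windows of this length, and CAGCTG in 13.0%. Of the 9 members, 5 had an E-box in a window (Fadd, Casp8, Casp9, Bcl2l1 and Mcl1), and Fadd alone had CAGCTG. Some members have more than 1 window. Counted by window, as in the background, 7 of 12 member windows held an E-box and 1 held CAGCTG. The E-box CAGGTG or CACCTG was in a window of 0 of 9 members, against 17.2% of all windows. A GC box was present in 32.7% of all windows, in 7 of the 12 member windows and in windows of 6 of 9 members. CANNTG and the GC box pair read the same on both strands, and they do not overlap each other here. These matches describe the letters and are not binding data.

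Casp8, the initiator that FADD recruits, stood at 97.5 in the control against 139 in the ID2 library. The log2 ratio was 0.50, 1.42-fold higher. In its level bin 42.0% of 634 genes were at least as far apart, so this ratio is within the usual spread of genes at that level. Casp8 and Fadd take part in the same complex. Per kilobase of transcript, Casp8 stood 10.6 times as high as Fadd in the control against 1.68 times in the ID2 library. The first ratio rests on the Fadd control value of 13.9, which is under the floor. The difference between these ratios largely restates that of Fadd. Cflar, which encodes the caspase-8-like inhibitor FLIP, is the coding gene next to Casp8 on chromosome 1. It stood at 220 and 418 (0.92). Per kilobase, Casp8 was 1.13 times Cflar in the control against 0.84 times in the ID2 library.

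Casp9, the initiator of the mitochondrial route, stood at 731 in the control against 826 in the ID2 library (log2 ratio 0.18). In its bin 57.1% of genes were at least as far apart. Its partner Apaf1 stood at 2109 and 2040 (−0.05), named here for that role. Per kilobase Casp9 was 0.59 times Apaf1 in the control against 0.68 times in the ID2 library.

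Among the survival genes, Mcl1 had the highest level per kilobase of all listed members in both libraries (2873 in the control against 2388 in the ID2 library). Its value was 9821 in the control against 8161 in the ID2 library, a log2 ratio of −0.27 or 1.20-fold lower, and 24.1% of genes in its bin were at least as far apart. Bcl2l1, which encodes BCL-XL, stood at 615 and 719 (0.23), where 47.3% of genes in its bin were at least as far apart. So the listed survival members differed in sign, each within the usual spread of its level. Bcl2 was not listed, and Bcl2l2 (BCL-W), the 1 listed gene of the other survival proteins, stood at 995 and 698 (−0.51).

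Of the BH3-only members, Bcl2l11, which encodes BIM, was lower, at 709 in the control against 518 in the ID2 library. Its log2 ratio of −0.45, 1.37-fold lower, was the largest negative value of the members, and 19.9% of genes in its bin were at least as far apart. Bid, the substrate of caspase-8 that links both routes, was higher, at 1616 and 2010 (0.31), with 22.9% of its bin at least as far apart. Per kilobase, Mcl1 stood 20.4 times as high as Bcl2l11 in the control against 23.2 times in the ID2 library. For Bcl2l1 over Bcl2l11 these ratios were 1.70 and 2.73. Both survival genes thus stood higher relative to Bcl2l11 in the ID2 library. So did every other listed member, since Bcl2l11 had the lowest ratio of them. The survival gene Bcl2l2 (−0.51), not a member, stood lower relative to Bcl2l11. No replicate shows how far such ratios vary.

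Bak1, which forms the pore in the outer mitochondrial membrane, was the member least apart, at 2468 and 2520 (0.03). In its bin 88.2% of genes were at least as far apart. Its counterpart Bax stood at 4136 and 4549 (0.14). Per kilobase, Bax was 3.64 times Bak1 in the control against 3.92 times in the ID2 library. In order of level per kilobase in the control, the members ran Mcl1 (2873), Bak1 (1034), Bid (738), Bcl2l1 (239), Casp9 (188), Bcl2l11 (141), Casp8 (37.7) and Fadd (3.57). The same order held in the ID2 library, from Mcl1 (2388) to Casp8 (53.6) and Fadd (31.9). No replicate shows which neighbors in this order differ beyond their spread. Averaged over both libraries, Mcl1 was higher per kilobase than 94.8% of coding genes above the floor and Fadd higher than 3.03%.

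The libraries do not keep strand, so reads of exons that overlap on opposite strands cannot be told apart. In GENCODE M21, 17.7% of the exon bases of Bid overlap Bcl2l13, which was lower (2482 and 2029). For Bak1, the overlap with Ggnbp1 (577 and 512) takes up to 18.2% of exon bases. The overlap of Fadd with the antisense gene Faddos takes 6.12% of its exon bases, and Faddos was not listed. In Casp9 1.81% of exon bases overlap a neighbor. No overlap of exons on the other strand was annotated for Casp8, Bcl2l1, Mcl1 or Bcl2l11.

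Of the 8 members in the authors' deposited table, Fadd alone had an unadjusted p under 0.05, and the p-values of the other 7 lay between 0.263 and 0.920. None had an adjusted p under 0.05 there, as had 0.181% of all genes. The genes above the floor whose values in both libraries lay nearest to those of Fadd were Fancf, a Fanconi anemia gene (14.9 and 111), the transcription factor Sox7 (16.9 and 127) and Xkr6 (15.9 and 148). With 2 libraries such likeness says only that the pairs of values are alike. The control values of Fancf, Sox7 and Xkr6 were under the floor, so like Fadd they passed it only through the ID2 library. The longest exon held 100% of the transcript of Fancf, 90.3% for Sox7 and 67.0% for Xkr6, against 90.8% for Fadd. The part of exon structure in these values was not tested.

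Beyond the members, 10 lists by role held 65 further genes of these routes, of which 51 were listed and 48 were above the floor. Of those 48, 28 were higher and 20 lower, 3 were higher by 2-fold or more (6.25%) and 1 was lower by as much (2.08%), against 2.53% and 1.86% over all genes above the floor. The median log2 ratio was 0.07. The 4 genes past 2-fold had means between 82.2 and 126, in level bins where 11.2% to 18% of all genes were 2-fold or more apart. Of the 37 list genes with a mean of at least 250 none was 2-fold apart, against 1.65% of all genes at that level.

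**Figure D5:**
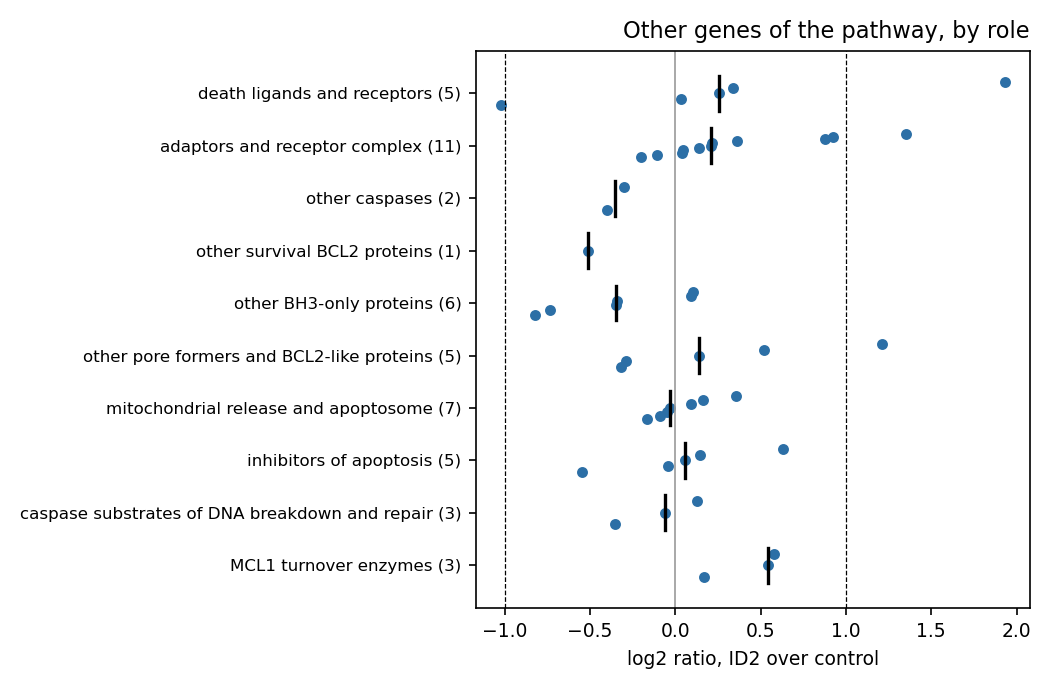
Log2 ratio of ID2 over control for genes above the floor in 10 lists by role (number of genes in parentheses); points are genes, spread vertically only to part them, black bars are medians and dashed lines mark 2-fold. Casp2 (−0.40) and Casp6 (−0.30) lie left of 0, and 9 of 11 adaptors and complex members lie right of it.

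On the receptor side, 4 of 5 receptors above the floor were higher and 1 was lower (median 0.26). For all genes above the floor these shares were 47.2% and 51.5%. Tnfrsf25 (DR3) stood at 51.7 and 200 (1.93) and Tnfrsf1a, the main receptor of tumor necrosis factor, at 127 and 62.3 (−1.02). Ngfr, the low-affinity neurotrophin receptor, stood at 943 and 1192 (0.34). Fas, under the floor, stood at 57.7 and 27.1. The ligand genes Tnf, Lta, Fasl and Tnfsf10 were not listed. In the level bins of Tnfrsf25 and Tnfrsf1a, 11.2% and 18% of genes were 2-fold or more apart.

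Among adaptors and other members of the receptor complex, 9 of 11 genes were higher (median 0.21). Over all genes above the floor, 47.2% were higher by any amount. The kinase gene Ripk1 stood at 45.8 and 119 (1.35), the inhibitor Cflar at 220 and 418 (0.92), and the adaptor Cradd, which joins PIDD to caspase-2, at 163 and 300 (0.88). Of these, Ripk1 alone was past 2-fold, with a control value under the floor, and 18% of genes in its level bin were 2-fold or more apart. Tradd, which joins TNF receptor 1 to FADD, stood at 180 and 209 (0.21). The kinase gene of necroptosis, Ripk3, stood at 786 and 731 (−0.11).

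Of the other caspases, Casp2, which PIDD activates, stood at 975 and 739 (−0.40) and the executioner Casp6 at 352 and 285 (−0.30). The inflammatory caspases Casp1 and Casp4 were not listed, nor were Casp12 and Casp14. Casp8 and Casp9 were higher and Casp2 and Casp6 lower, all by less than 1.5-fold.

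Of the 6 other BH3-only genes 4 were lower, with a median of −0.35. Among all genes above the floor, 51.5% were lower by any amount. Bbc3 (PUMA) stood at 2602 and 1470 (−0.82), Pmaip1 (NOXA) at 1472 and 884 (−0.73), and Hrk at 679 and 533 (−0.35). Bbc3 and Pmaip1 lay at levels where 0.473% and 1.42% of genes were 2-fold or more apart, a cut that neither gene reached. How many genes at these levels were as far apart as Bbc3 and Pmaip1 was not computed. NOXA binds MCL1, and it was lower together with Mcl1 and Bcl2l11. Bmf (0.10) and Bad (0.09) were close to equal. The authors' deposited table gives Bbc3 a p of 0.00724 and Pmaip1 a p of 0.0309, with adjusted p of 0.630 and 1. Of the other pore formers and BCL2-like genes, Bcl2l14 stood at 55.7 and 131 (1.21), Bcl2l12 at 216 and 309 (0.52) and Bok at 261 and 209 (−0.32).

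Genes of the mitochondrial release step and the apoptosome had a median of −0.03, with 3 higher, 4 lower and none 2-fold apart. Aifm1 stood at 1454 and 1860 (0.36), Diablo, which encodes an antagonist of inhibitor of apoptosis proteins, at 1361 and 1215 (−0.16) and Endog at 91.6 and 102 (0.16). The inhibitors of apoptosis had a median of 0.06, with Birc3 at 73.6 and 115 (0.63), Birc2 at 2041 and 1395 (−0.55) and Xiap, the direct caspase inhibitor, at 1426 and 1580 (0.15). In the list of DNA breakdown and repair downstream of caspases, Parp1 stood at 31458 and 34296 (0.12). Dffb, the nuclease that cuts DNA in apoptosis, stood at 511 and 400 (−0.35), and its inhibitor Dffa at 702 and 672 (−0.06).

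The 3 listed genes for turnover of MCL1 protein were all higher, none by 2-fold or more. By any amount, 47.2% of all genes above the floor were higher, so a count of 3 says little. The ubiquitin ligase gene Huwe1 (MULE) stood at 33979 and 49583 (0.55), the ligase gene Fbxw7 at 644 and 963 (0.58) and the deubiquitinase gene Usp9x, whose product protects MCL1, at 12487 and 14012 (0.17). These enzymes have many other substrates, and the values are of RNA, not of protein.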

How the data were processed

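Libraries were prepared with a TruSeq RNA kit from Trizol-extracted RNA, per the labels' protocols. The submitters' processing notes name STAR, DESeq and mouse build mm9; none of the labels gives versions, the counting tool or the annotation. The authors deposited, per gene, a normalized signal value for each library, their mean, a fold (ID2 over control), its log2, and p-values with and without adjustment. The sequencing depth is unknown. The members and lists were chosen with earlier results of these data known.

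The log2 ratio was computed with Python 3.11.15 and pandas 2.3.3 after adding a pseudocount of 1, with a floor of 50 on the mean and 20 equal level bins. No test of a group difference was run, since each group had 1 library. Named genes were the 9 members, Id2, up to 3 genes per pathway list with the largest absolute ratio, the neighbors of Fadd and the 3 genes nearest to it; Fas, Tradd, Ripk3, Apaf1, Bax, Bad, Bmf, Adamtsl4 and genes that overlap a member or were not listed were added for their role, and cell type markers were named as such, Zfp42 and Col1a1 after their values were seen. Some genes chosen for the lists are not reported here and enter no count of a list. Transcript lengths and exons came from GENCODE M21 (GRCm38), for coding genes from the longest coding transcript. Of genes above the floor, 90.7% were matched by symbol to a coding gene. All 9 members matched the RefSeq promoter table (GRCm38.p6). No coordinate was carried between builds.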

Additional observations from a re-analysis of the deposited data

How the results depend on the processing

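Of 122 recomputed values, 108 stayed within 0.1 on the log2 scale or 1.5 times of a count, and 14 moved. Member ratios under another floor are among the 108, though a floor cannot move them. No member changed sign under other scalings, pseudocounts, floors or the authors' log2 column. For floors and pseudocounts this was fixed in advance, since neither can change the sign of a ratio. The other changes hardly move a ratio at high level, so this is no measure of reproducibility. The Fadd log2 ratio was 2.49 with a pseudocount of 10 and ranged up to 3.16. With a floor of 250, Fadd and Casp8 dropped out, and 0 members and 0 list genes in either direction were at least 2-fold apart. Over all genes, 551 were higher and 470 lower by 2-fold with no floor, 105 and 53 with a floor of 250, 1014 and 835 at 1.5-fold, and 23 and 18 at 4-fold. With no floor, the median of receptors was 0.15 and 2 list genes were at least 2-fold lower. No paired analysis was possible because each group had 1 library. The scaling moved the median ratio from 0.9984 to 1.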
